A study of Oncorhynchus mykiss with 69 samples.

Results

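The genes described here encode the respiratory chain and the ATP synthase of rainbow trout (Oncorhynchus mykiss). They were taken by symbol: every gene whose NCBI Gene symbol, found through its gene number, begins with nduf, sdha, sdhb, sdhc, sdhd, uqc, cox and a digit, cyc or atp5. The reference holds 42 such symbols, and 39 of them were in at least 1 table of fold changes, of 35945 genes tabulated in all. By role the 42 are 22 subunits and 5 assembly factors of complex I, 2 subunits and 3 assembly factors of complex II, and 8 subunits and 2 inhibitors of the ATP synthase. No gene of complex III, complex IV or cytochrome c carries a symbol that the rule takes, and none of the 13 subunits encoded in mitochondrial DNA was in a table, so neither is described. The subunits atp5fa1, atp5mpl and ndufab1b were in no table, and ndufs3, ndufs4 and sdhb were in a fluoxetine table only.

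The respiratory chain passes electrons from NADH and succinate to oxygen and pumps protons across the inner mitochondrial membrane, and the ATP synthase uses the returning protons to make ATP. Complex I (NADH dehydrogenase) has a peripheral arm, which binds NADH and carries the iron-sulfur clusters, and a membrane arm, which pumps protons. Complex II (succinate dehydrogenase) links the citric acid cycle to the chain. Assembly factors help to build these complexes and are not part of the finished enzyme. The roles given below are those of the human or yeast counterparts.

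Cultures of 3 trout lines were treated with methylmercury or fluoxetine for 24 h, and RNA was measured by sequencing in 69 libraries. The lines were RTgill-W1 from gill, RTL-W1 from liver and RTgutCC, as the labels spell it, from the epithelium of the intestine. For methylmercury each line had an untreated control and 5 concentrations with 2 libraries each. For fluoxetine each line had 9 concentrations from 1.6 to 1000 ppb with 1 library each and 2 controls, of which 1 is named ctrl and the other H2O. All groups were grown in the same medium with serum and antibiotics at the same temperature, and each group is 1 established line over a range of passages. The labels do not say whether both libraries of a group came from separate cultures, so p-values measure only the spread between these libraries. Methylmercury concentrations are given as in the tables, from 0.25 to 250, which is 250 times the number in the sample titles; neither source gives a unit.

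Depth, estimated as reads in tabulated genes, was 7.74 M to 11.51 M per library with methylmercury and 1.83 M to 7.67 M with fluoxetine. The gill table for methylmercury held 32 of the members, that of liver 18 and that of gut 34, and 17 were in all 3. The rule by which a gene entered a table is not stated, so the counts cover tabulated members and say nothing of the others. The trout genome holds many duplicated genes, and values of genes with a near-identical copy are uncertain, since how reads were shared between copies is not given. For methylmercury the mean of each pair of libraries could be recovered but not the single libraries, so whether the libraries of different groups overlap cannot be said. The few tabulated markers followed the labelled tissues only in part. In the controls collagen genes reached log2 levels of 17.1 in gill, 19.9 in liver and 16.4 in gut. Of the other fibroblast markers, vim was at 9.83, 8.58 and 8.04, where the median gene was at 7.50, 7.73 and 8.23. The fibroblast marker thy1, tabulated in liver only, was at 4.35. The epithelial keratin krt18b, the only 1 of 3 epithelial markers tabulated, was at 4.19 in gill and 3.96 in gut but at 16.9 in liver. Of the enterocyte markers none of 5 was tabulated in gut, so their level there is not known. Of the hepatocyte markers 2 of 4 were tabulated in liver, with tf at 12.5, percentile 95.8 of the control levels, and tfa at the lowest level, 0.90. In gut 2 of 4 were tabulated as well, with fga at 10.3, percentile 75.4, and tfa at 2.65. Leukocyte and endothelial markers were at 6.59 or lower wherever they were tabulated.

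With methylmercury, all tabulated members were lower at 250 than in the control as deposited, in every line. The median of all genes was lower too. Most other genes fell as well: the gill table held 22579 genes, and 16317 of them were below their control at 250. For liver this was true of 16964 out of 23203 genes, while the gut table had 15986 out of 21859. The median log2 fold change of all genes at 250 was -0.89 in gill, -0.78 in liver and -1.01 in gut; at 125 it was -0.46, -0.43 and -0.56. By the authors' own F-test over concentrations, 32 of 32 members were called at an adjusted p under 0.05 in gill, against 56.8% of all genes. In liver 16 of 18 were called against 45.8%, and in gut 33 of 34 against 63.4%. The members not called were ndufa7 (adjusted p 0.0511) and sdhaf1 (0.71) in liver and atp5if1b (0.305) in gut. Because the libraries are scaled to their totals, the values are shares of a library and not amounts per cell. Such shares do not measure RNA per cell, since an even loss of all RNA would leave them unchanged. On this scale a fall of most genes comes with a larger share for other transcripts. Whether the cells themselves or the mix of cells changed cannot be told apart in these data. All fold changes below are therefore centred: the median of all genes of the same line and concentration was subtracted, and "lower" or "higher" means relative to that median gene.

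After centring, the members as a group lay at the median gene in gill and liver and below it in gut. At 250 the median centred log2 fold change of the members was -0.05 in gill (32 members), -0.01 in liver (18) and -0.36 in gut (34), where the median of all genes is 0 by construction. For the 17 members tabulated in every line it was -0.20, -0.04 and -0.69. These positions depend on what is taken as the reference: centred instead on the median of the more highly expressed genes, those with a mean level above the table's median, the medians became 0.15, 0.09 and -0.10. The F-test repeated on centred values called 5 of 32 members in gill against 27.8% of all genes, 2 of 18 in liver against 19.1% and 13 of 34 in gut against 40.5%. The shares of members called were thus below or near those of all genes.

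**Figure D1:**
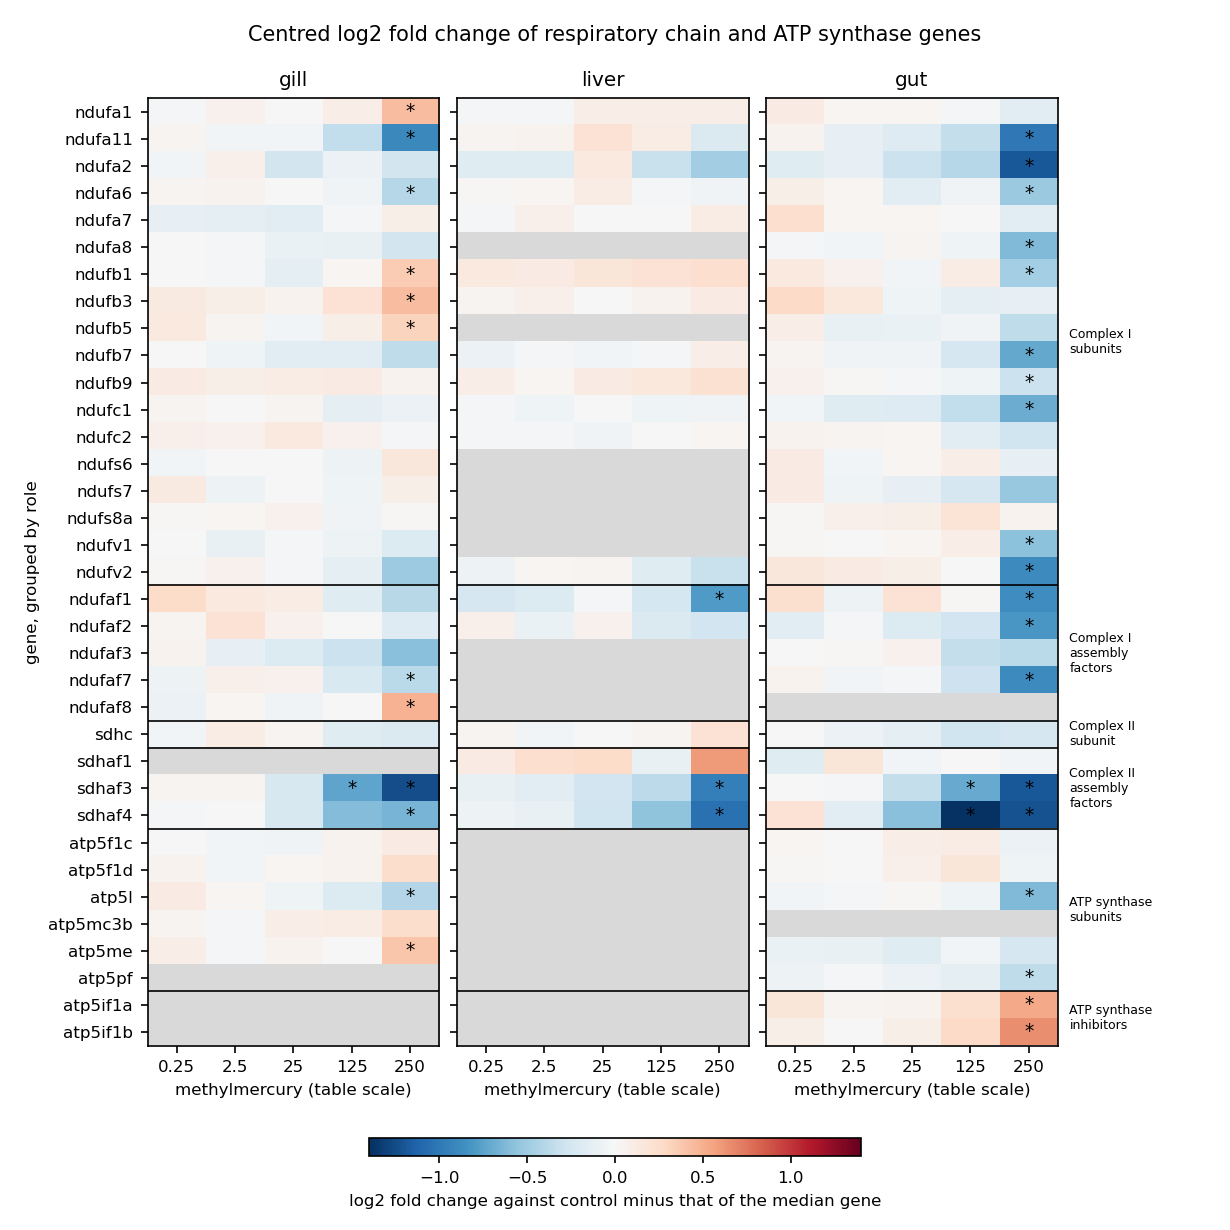
Centred log2 fold change of the tabulated members (rows, grouped by role; 1 member is not drawn) at 5 methylmercury concentrations (columns) in the 3 lines; grey marks genes not tabulated and a star an adjusted p under 0.05. Colour appears mainly at 125 and 250, and sdhaf3 and sdhaf4 are the rows that are called lower at 250 in all 3 lines.

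Calls of single members came late in the concentration series. At 0.25, 2.5 and 25 no member was called in any line. Of all genes 0.0221%, 0.0354% and 0.372% were called there in gill, 0.0345%, 0.0431% and 0.069% in liver, and 0.0549%, 0.0503% and 0.988% in gut. At 125 the test called sdhaf3 in gill, where 16.5% of all genes were called, no member in liver (10.8%), and sdhaf3 and sdhaf4 in gut (16.1%). At 250 it called 12 members in gill, 6 lower and 6 higher, where 36.6% of all genes were called, 19.6% lower and 17% higher. In liver it called 3, all lower, against 29% of all genes, 13.3% lower and 15.7% higher. In gut it called 19, with 17 lower and 2 higher, against 47.8% of all genes, 25.9% lower and 21.9% higher. As a share of tabulated members these were 37.5%, 16.7% and 55.9%. The centred F-test over all concentrations called fewer members in gill, liver and gut: 5, 2 and 13.

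In each line the member furthest below the median gene at 250 was an assembly factor of complex II. The margin was small in gut, where sdhaf4 was at -1.22 and both sdhaf3 and the complex I subunit ndufa2 were at -1.18. Outside the symbol rule, the complex I factor timmdc1 was at -1.37 in gut. The complex II factors mature the subunits of succinate dehydrogenase: sdhaf3 and sdhaf1 act on the iron-sulfur subunit, and sdhaf4 binds the flavin-carrying subunit. In gill the log2 level of sdhaf3, as the mean of each pair, was 9.19 in the control and 9.27, 9.27, 8.92, 7.99 and 7.05 from the lowest to the highest concentration. In liver it was 9.66 in the control and then 9.55, 9.52, 9.28, 8.87 and 7.93. In gut it was 9.54 and then 9.52, 9.49, 9.00, 8.27 and 7.34. The levels at 0.25 and 2.5 were close to the control in every line, and the lowest level was at 250 in all 3.

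At 250 sdhaf3 was lower by a centred log2 fold change of -1.24 ± 0.16 (SE) in gill (adjusted p 7.7e-04), -0.96 ± 0.13 in liver (0.0018) and -1.18 ± 0.10 in gut (7.6e-05). As deposited, without centring, the values were -2.14, -1.73 and -2.20. It was already lower at 125 in gill (-0.74, adjusted p 0.018) and gut (-0.70, 0.0029); in liver the value there was -0.37 (0.14). The estimated reads behind sdhaf3 went from 185 to 40.5 per library in gill, from 217 to 68.1 in liver and from 176 to 33.9 in gut.

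The level of sdhaf4 was 8.97 in the gill control and 9.00, 9.02, 8.70, 7.91 and 7.43 from 0.25 to 250. The liver values were 9.25 and then 9.18, 9.15, 8.86, 8.26 and 7.43, and the gut values 9.43 and then 9.63, 9.26, 8.64, 7.49 and 7.20. The gut cells were thus close to their lowest sdhaf4 level at 125. Its centred fold change at 250 was -0.65 ± 0.21 in gill (adjusted p 0.046), -1.04 ± 0.25 in liver (0.018) and -1.22 ± 0.17 in gut (0.0011). At 125 it was lower in gut (-1.38, adjusted p 0.0017), and the values in gill (-0.61, 0.10) and liver (-0.56, 0.22) did not pass. The gill call at 250 was lost when centring on the more highly expressed genes (-0.45, adjusted p 0.13). The centred F-test over all concentrations called sdhaf4 in gut (adjusted p 0.0012) but not in gill (0.107) or liver (0.098). For sdhaf3 that test passed in gill (0.0027), liver (0.0137) and gut (3.3e-04).

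The third factor, sdhaf1, was not called. Its centred value at 250 was 0.60 ± 0.47 in liver and -0.04 ± 0.24 in gut, and it was not tabulated in gill. It had 42.1 estimated reads per library in the liver control. The only subunit of complex II in these tables, the membrane anchor sdhc, was not called either, with -0.20 ± 0.13 in gill, 0.20 ± 0.11 in liver and -0.24 ± 0.11 in gut. Of the complex II genes tabulated in all 3 lines, 2 of 3 were called lower in each line, and these were assembly factors. Of all genes 19.6%, 13.3% and 25.9% were called lower in gill, liver and gut. That count leaves out sdhaf1. With it, 2 of 3 assembly factors and 0 of 1 subunits of complex II were called lower in liver and in gut.

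**Figure D2:**
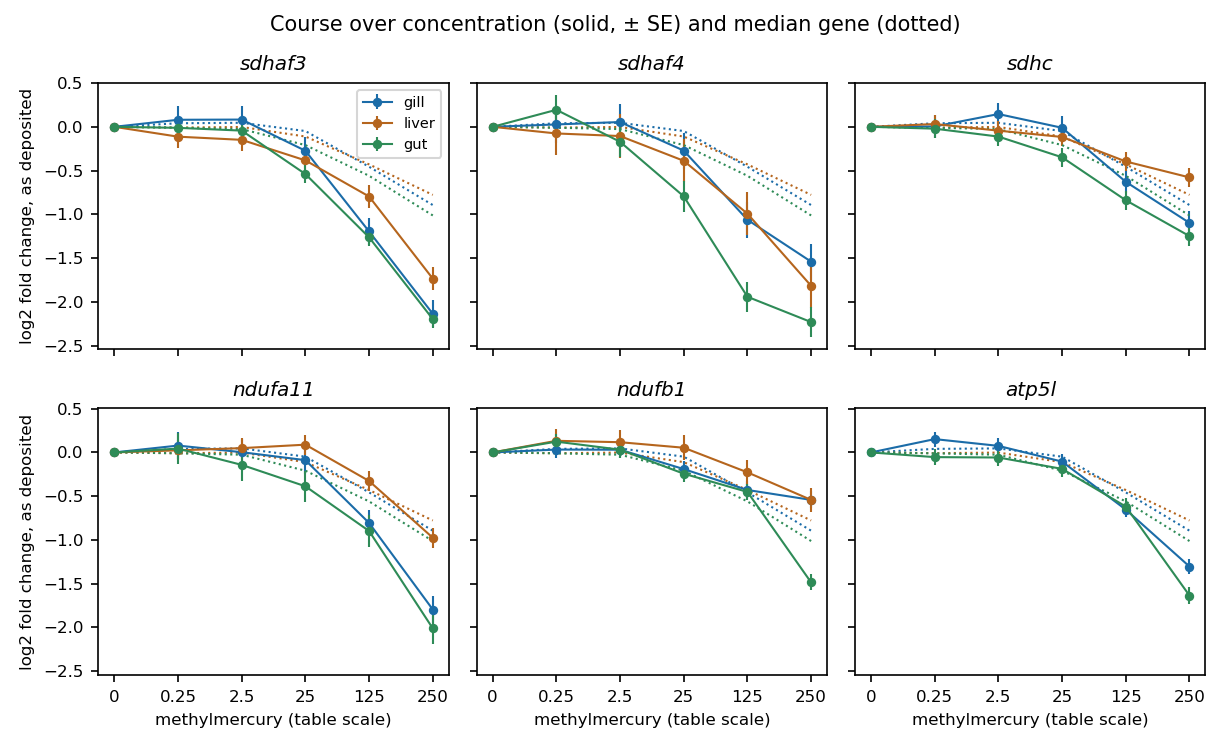
Log2 fold change against control as deposited (solid lines, ± SE) over methylmercury concentration for 6 genes, with the median gene of each line dotted in the same colour. For sdhaf3 and sdhaf4 the solid lines lie below the dotted ones from 25 upward in every line, sdhc stays within 0.28 of them, and ndufb1 lies below its dotted line at 250 in gut but lies above it in gill.

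Assembly factors of complex I were lower in part. In gut 3 of the 4 tabulated were called lower at 250, in liver 1 of 2, and in gill 1 of 5 was called lower and 1 higher. Of all genes 25.9%, 13.3% and 19.6% were called lower in the same order, so the gill count is near that of all genes, and with 2 to 5 genes a line these shares are coarse. For ndufaf7, a methyltransferase that modifies a peripheral arm subunit, the level went from 9.70 to 8.42 in gill and from 10.37 to 8.46 in gut. Its centred fold change was -0.38 ± 0.09 in gill (adjusted p 0.012) and -0.89 ± 0.13 in gut (0.0011), so the gill value is the smaller, although the difference between the lines did not pass (adjusted p 0.0779). When centred on the more highly expressed genes the gill call of ndufaf7 was lost (-0.19, adjusted p 0.13).

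For ndufaf1, which helps to build the membrane arm, the level went from 9.66 to 8.09 in liver and from 9.06 to 7.18 in gut. The centred values were -0.79 ± 0.14 (adjusted p 0.006) and -0.87 ± 0.21 (0.012), and in gill -0.39 ± 0.23 (0.23). In gut ndufaf1 stayed near the median gene up to 125, where its centred value was 0.02, and it had 30.3 estimated reads per library at 250. A late-acting factor, ndufaf2, was called in gut (-0.81 ± 0.19, adjusted p 0.0098), with -0.18 in gill and -0.26 in liver.

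In gill ndufaf8, which stabilises another complex I assembly factor, was higher than the median gene at 250 (0.49 ± 0.09, adjusted p 0.006). Its level was 10.75 in the control, 10.29 at 125 and 10.35 at 250, and as deposited its log2 fold change was -0.40. The remaining factor ndufaf3 was not called, at -0.58 ± 0.27 in gill and -0.37 ± 0.13 in gut.

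Across both complexes, the median centred fold change of assembly factors at 250 was -0.39 in gill (7 genes), -0.79 in liver (5) and -0.87 in gut (7). Subunits, those of the ATP synthase included, had medians of 0.05 (25), 0.09 (13) and -0.35 (25). Assembly factors called lower were 3 of 7, 3 of 5 and 5 of 7, against 19.6%, 13.3% and 25.9% of all genes called lower. Subunits called lower were 3 of 25, 0 of 13 and 12 of 25. Assembly factors were also the less deeply read genes: their median in the controls was 183, 213 and 164 estimated reads per library in gill, liver and gut, against 734, 497 and 642 for subunits. The part of read depth in the difference between the roles was not tested, and no test was made between the roles themselves.

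Of the complex I subunits, 19 were tabulated in gill, of which 2 were lower and 4 higher at 250; none of 12 was called in liver; and 10 of 19 were lower and none higher in gut. In either direction these were 31.6% of the subunits in gill, 0% in liver and 52.6% in gut, against 36.6%, 29% and 47.8% of all genes, so the shares called in gill and gut were near or below the background. The lower calls alone compare with 19.6% of all genes in gill and 25.9% in gut. Their median centred fold change was 0.02, 0.06 and -0.47 in the same order. In gill the lowest was ndufa11, a membrane arm subunit, whose level was 10.16 in the control, 10.24 at 0.25, 9.35 at 125 and 8.36 at 250. It was lower by -0.90 ± 0.15 in gill (adjusted p 0.0034) and by -1.0 ± 0.18 in gut (0.0034), and the liver value was -0.20 ± 0.12 (0.25). The differences of ndufa11 between liver and the other lines did not pass (adjusted p 0.081 against gill and 0.0536 against gut). The lower subunits of gill were ndufa11 and ndufa6, a peripheral arm subunit that binds the mitochondrial acyl carrier protein, at -0.40 ± 0.13 (adjusted p 0.046). The gill call of ndufa6 was lost when centring on the more highly expressed genes (-0.21, adjusted p 0.25).

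The 4 subunits that were higher in gill all belong to the membrane arm: ndufa1 (0.43 ± 0.13), ndufb3 (0.43 ± 0.09), ndufb1 (0.35 ± 0.10) and ndufb5 (0.31 ± 0.09). Among them ndufb3 was the highest, with an adjusted p of 0.0096, and its level went from 11.54 in the control to 11.08 at 250. As deposited the log2 fold changes of all 4 were below 0, from -0.46 to -0.59. By the centred F-test over all concentrations these 4 were not called in gill. Its adjusted p was 0.154 for ndufa1, 0.068 for ndufb3, 0.065 for ndufb1 and 0.128 for ndufb5. None of the 9 peripheral arm subunits was higher in gill, and 1 was lower. Of the 10 membrane arm subunits 4 were higher and 1, ndufa11, was lower. Of all genes in gill 17% were called higher and 19.6% lower. The median of each arm in gill was 0.02, and no test was made between the arms. In liver the centred values of the 12 subunits lay between -0.49 (ndufa2) and 0.23 (ndufb1) with no call.

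In gut the lowest subunit was ndufa2, a small peripheral arm subunit. Its level was 9.72 in the control and 9.54, 9.58, 9.22, 8.76 and 7.52 over the concentrations, and it was lower by -1.18 ± 0.13 at 250 (adjusted p 3.0e-04). In the peripheral arm ndufv1 and ndufv2, which form the NADH-binding tip, were at -0.57 ± 0.08 (adjusted p 8.2e-04) and -0.89 ± 0.15 (0.0022), and ndufa6 was at -0.52 ± 0.14. In the membrane arm 6 of 10 were lower: ndufa11, ndufb7 (-0.72 ± 0.11), ndufc1 (-0.69 ± 0.10), ndufa8 (-0.62 ± 0.09), ndufb1 (-0.47 ± 0.09) and ndufb9 (-0.30 ± 0.10). By arm, 4 of 9 peripheral and 6 of 10 membrane subunits were called, all lower, with medians of -0.52 and -0.41; these are 44.4% and 60% of each arm, where 47.8% of all genes were called and 25.9% were called lower. The subunits not called lay between -0.53 (ndufs7) and 0.05 (ndufs8a). When centred on the more highly expressed genes the gut calls of ndufa6 (-0.26, adjusted p 0.16), ndufb1 (-0.21, 0.093) and ndufb9 (-0.04, 0.74) were lost.

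**Figure D3:**
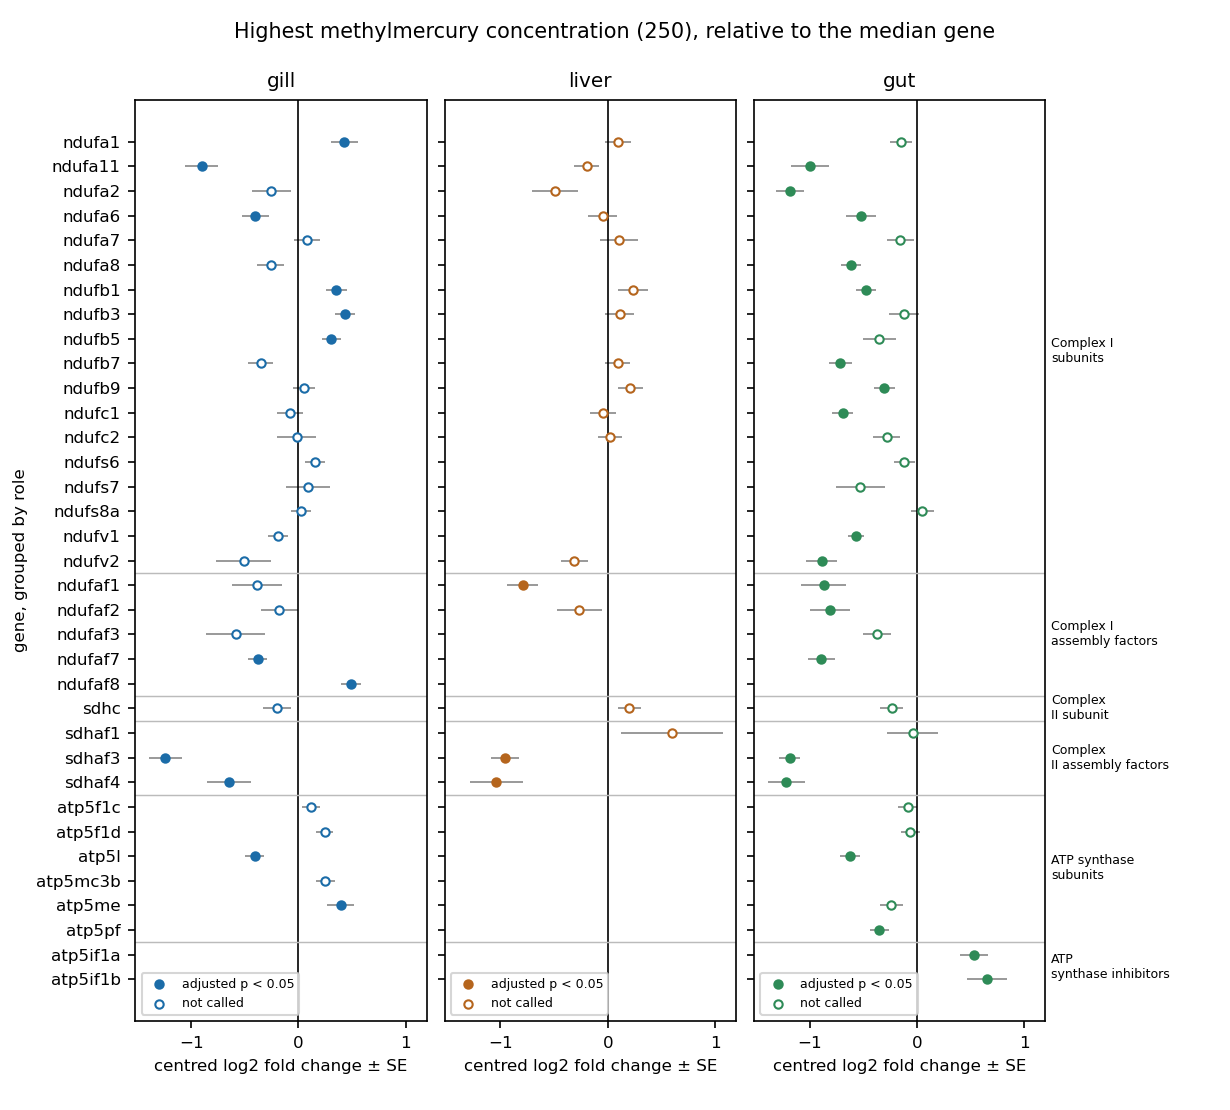
Centred log2 fold change ± SE of the tabulated members at methylmercury 250 in the 3 lines, grouped by role (1 member is not drawn); filled points have an adjusted p under 0.05. In gut most filled points lie left of the median gene at 0, in gill 6 lie on each side, and in liver the only filled points are ndufaf1, sdhaf3 and sdhaf4.

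ATP synthase subunits were tabulated in gill (5) and gut (5) and in no case in liver. The membrane subunit g, encoded by atp5l, was lower in both: its level went from 11.34 to 10.04 in gill (-0.41 ± 0.09, adjusted p 0.0091) and from 11.43 to 9.79 in gut (-0.62 ± 0.09, 0.0015). Its partner subunit e, encoded by atp5me, was higher in gill (0.39 ± 0.12, adjusted p 0.042) and had a gut value of -0.24 ± 0.11 (0.11). The peripheral stalk subunit atp5pf was lower in gut (-0.35 ± 0.09, adjusted p 0.016). With centring on the more highly expressed genes atp5l in gill (-0.22, adjusted p 0.096) and atp5pf in gut (-0.09, 0.44) were no longer called. By the centred F-test over all concentrations neither atp5me in gill (adjusted p 0.179) nor atp5pf in gut (0.103) was called. The rotor and central stalk subunits were not called, with atp5f1c at 0.12 and -0.09 in gill and gut, atp5f1d at 0.24 and -0.06, and atp5mc3b at 0.25 in gill.

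The inhibitors of the ATP synthase, atp5if1a and atp5if1b, block the enzyme when it runs in reverse, and they were tabulated for methylmercury in gut only. The level of atp5if1a was 11.38 in the control and 11.54, 11.39, 11.23, 11.05 and 10.90 over the concentrations. That of atp5if1b was 9.86 and then 9.94, 9.84, 9.73, 9.57 and 9.50. Both levels came down by less than the median gene, and the centred fold changes at 250 were 0.53 ± 0.13 (adjusted p 0.014) and 0.65 ± 0.19 (0.025). As deposited the values were -0.48 and -0.36, so each is higher only relative to the median gene. They were the only members called higher in gut.

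The response at 250 was compared between lines by the difference of the centred fold changes, with p-values adjusted over all genes tabulated in both lines. Between gill and liver 0 of 17 members passed, against 5.65% of all genes. Between gill and gut 3 of 30 passed, against 11.2%, and between liver and gut 3 of 18, against 12.4%. At an unadjusted p under 0.05 there were 3 of 17 (ndufa11, ndufb7 and sdhc), 12 of 30 and 9 of 18, against 23.9%, 28.1% and 30% of all genes. These comparisons share lines and are not independent of each other. The median difference of the members was -0.04 for gill minus liver, 0.36 for gill minus gut and 0.49 for liver minus gut, where that of all genes was 0.03, 0.09 and -0.01. The gill value was above the gut value in 27 of 30 members and the liver value in 18 of 18. With centring on the more highly expressed genes it was 26 and 17. The median differences were then 0.29 and 0.33 for the members and 0.02 and -0.17 for all genes. The share of all genes with the same sign was not counted, and members share libraries and are not replicates.

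The members that passed were ndufb1, ndufc1, ndufa2 and ndufb7, all complex I subunits and all lower in gut. The level of ndufb1 went from 11.71 in the control to 11.16 at 250 in gill, from 10.77 to 10.23 in liver and from 11.95 to 10.46 in gut. Its centred fold change was above that of gut by 0.82 ± 0.13 in gill (adjusted p 0.011) and by 0.71 ± 0.17 in liver (0.038). For ndufc1, a small membrane arm subunit, the differences were 0.61 ± 0.16 (adjusted p 0.0499) and 0.65 ± 0.15 (0.0395). The difference for ndufa2 was 0.93 ± 0.22 between gill and gut (adjusted p 0.042), and that for ndufb7, a membrane arm subunit facing the intermembrane space, was 0.81 ± 0.16 between liver and gut (0.023). Cell type markers also moved at 250. Of all genes 36.6%, 29% and 47.8% were called there in gill, liver and gut. By direction 19.6%, 13.3% and 25.9% were lower and 17%, 15.7% and 21.9% higher. With few markers of a kind, counts of markers against these shares are coarse. Calls are on centred values, but the marker levels and sums given here are not centred. The median gene itself was at -0.89 in gill, -0.78 in liver and -1.01 in gut at 250. In gut 3 of 3 tabulated fibroblast markers were higher than the median gene. Their summed log2 level was 16.7 in the control and 17.6 at 250, with 16.7 to 17.6 over the treated groups. In gill 2 of 4 were lower, with a sum of 18.1 in the control and 16.9 to 18.0 in the treated groups. In liver 0 of 4 were called, with 20.7 and 19.9 to 20.7. Of the hepatocyte markers 2 of 2 were higher in gut (10.4 in the control, 10.1 to 11.6 treated), and of 2 in liver 1 was lower and 1 higher (12.5, and 10.6 to 12.6 treated). The marker tfa was higher in both lines from low control levels, 2.65 in gut and the lowest level, 0.90, in liver. The epithelial keratin krt18b was called higher in gill (1.20 ± 0.39, adjusted p 0.048; level 4.19 in the control, 4.37 to 5.20 treated) and in neither of the other lines. Of the enterocyte markers 1 of 2 was higher in liver, cdx1b, which was at the lowest level in the control (0.90; summed level of both 6.25 in the control, 5.60 to 6.50 treated), and 0 of 2 in gill. No leukocyte or endothelial marker was called. The part of these markers in the differences between lines was not tested.

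Differences of sdhaf3 between lines did not pass; gill minus gut was -0.06 ± 0.18, gill minus liver -0.28 ± 0.20 and liver minus gut 0.23 ± 0.16.

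The authors' deposited tables of benchmark doses give, for each listed gene, the concentration at which its fitted curve has moved away from the control by a set response. A lower and an upper bound stand beside it. The size of that response is not stated and need not be the same for every gene, so a dose may depend on scatter as well as on the fall. The residual SD in gut was 0.073 for sdhaf3, 0.17 for sdhaf4, 0.090 for ndufb7 and 0.18 for ndufa11. The part of scatter in the doses was not tested. Control means in these tables are those of the uncentred values, so the doses include the fall of the median gene. In the authors' deposited table for gill 3 of 32 members were listed, against 21.5% of all tabulated genes. For liver 3 of 18 were listed, against 15.2%, and for gut 13 of 34, against 28.9%. In gill the benchmark dose was 12.8 (4.54 to 20.9) for sdhaf3, 14.0 (5.40 to 22.8) for sdhaf4 and 16.5 (15.2 to 18.1) for ndufa11 in the authors' deposited table. In the authors' deposited table for liver it was 18.1 (16.5 to 19.98) for sdhaf3, 26.7 (9.74 to 43.3) for sdhaf4 and 48.8 (26.9 to 66.2) for ndufaf1.

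In gut the authors' deposited table gave sdhaf3 the lowest dose of the members, 3.01 (0.821 to 5.74), at rank 325 from the lowest of 6224 genes. It was followed by sdhaf4 at 4.39 (1.61 to 7.25), at rank 498 in the authors' deposited table. The other 11 members of gut had doses from 13.0 (ndufb7) to 62.4 (ndufaf1) in the authors' deposited table, with lower bounds of 7.88 (ndufa8) or more, above the upper bounds of both factors. The median of all listed genes was 23.1 in gill, 28.2 in liver and 26.4 in gut, and 3 of 3, 2 of 3 and 10 of 13 members were below it. Among the listed members sdhaf3 and sdhaf4 had the lowest doses in each line, but gill and liver listed only 3 each. In gill the bounds of both factors overlapped those of ndufa11. In liver the bounds of sdhaf4 overlapped those of ndufaf1, and those of sdhaf3 did not. Both factors had exponential curves in gill and gut, where the other members had straight lines or polynomials, apart from ndufs7 in gut. Between lines the bounds of sdhaf3 in gut overlapped those in gill and not those in liver, where its curve was a straight line.

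**Figure D4:**
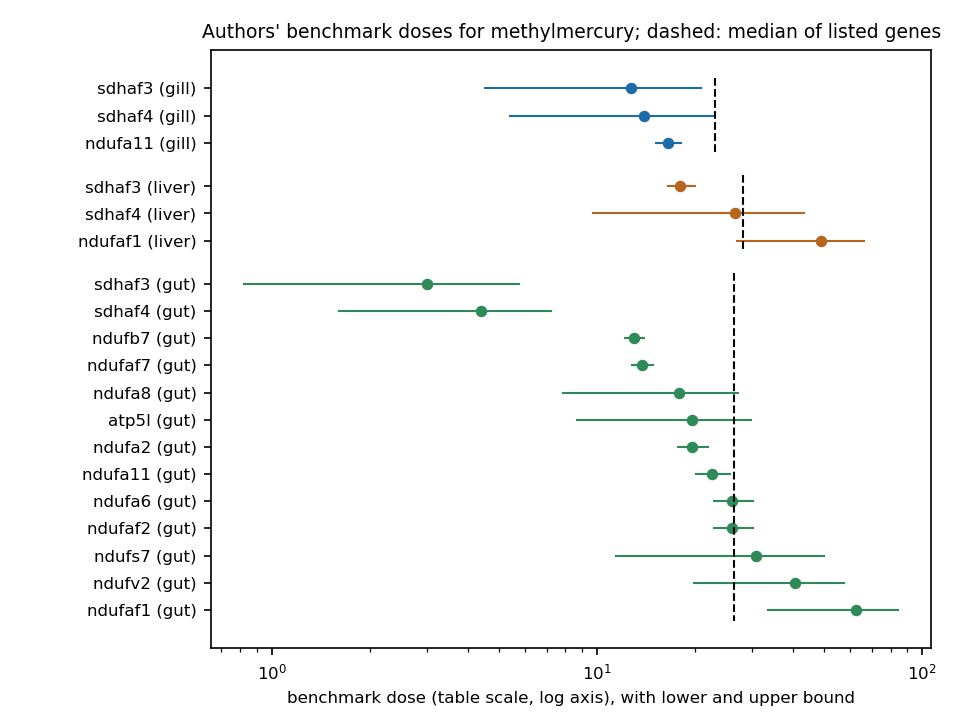
The authors' benchmark doses for methylmercury (points, log axis, table scale) with their lower and upper bounds for the 19 entries of members, and the median of all listed genes of each line dashed. In gut the doses of sdhaf3 and sdhaf4 lie left of all others, at 3.01 and 4.39. In gill and liver these 2 genes are also the lowest of the 3 listed, with bounds that partly overlap those of the third gene.

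Other genes of the pathway were looked at in 5 lists chosen by function. Their counts stand against 19.6%, 13.3% and 25.9% of all genes called lower at 250 in gill, liver and gut and 17%, 15.7% and 21.9% called higher, and with at most 7 genes a line several of them are near those shares. Of the assembly factors that the symbol rule does not take, gill had 1 of 6 called lower at 250, liver 0 of 1 and gut 3 of 4, with none higher. The complex I factor timmdc1 was the lowest of them, at -0.89 ± 0.12 in gill and -1.37 ± 0.17 in gut. The medians of this list were -0.13 in gill, 0.07 in liver (1 gene) and -0.55 in gut. In gill the others, none of them called, were tmem126a at 0.29, acad9 at 0.001, ecsit at -0.002, tmem70 at -0.26 and foxred1 at -0.35. Of the genes of coenzyme Q synthesis, which supplies the electron carrier between complexes I or II and complex III, gill had 4 of 5 lower, liver 1 of 4 and gut 2 of 5, with none higher. Among them coq5 was at -0.63 ± 0.10 in gill and -0.58 ± 0.09 in gut. Of the citric acid cycle genes none of 2 in gill and none of 3 in liver was called, and of 4 in gut 1 was lower and 1 higher.

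In the list of electron entry and carriers, 1 of 3 was lower in gill, 2 lower and 1 higher of 7 in liver, and 2 lower and 2 higher of 7 in gut. The proton-driven transhydrogenase nnt was the only gene of the 5 lists called with the same sign in every line, at -1.24 ± 0.12 in gill (adjusted p 1.7e-04), -0.87 ± 0.23 in liver (0.028) and -0.50 ± 0.11 in gut (0.0073). Its gut call was lost with centring on the more highly expressed genes (-0.24, adjusted p 0.10). The ADP/ATP carrier slc25a5, picked out after its values were seen, was higher in liver (1.30 ± 0.11) and gut (1.73 ± 0.07) and was not tabulated in gill. Of the genes that control mitochondrial DNA and its expression, 2 of 2 were lower in gill, 1 of 4 was higher in liver and 2 of 3 were lower in gut. Among these polg, the mitochondrial DNA polymerase, was at -0.98 ± 0.14 in gill and -0.51 ± 0.14 in gut, with -0.23 ± 0.15 in liver.

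Fluoxetine gave no call among the members. The fluoxetine table of gill held 17 of them, that of liver 10 and that of gut 13, with 3 (atp5pf, ndufa2 and ndufv2) in every line. By the authors' F-test no member was called at an adjusted p under 0.05, as was no gene of any line (0%), and at an unadjusted p under 0.05 it was 0 members in each line, against 11.5%, 10.4% and 10.1% of all genes. The smallest adjusted p of a member was 0.915 in gill, 0.919 in liver and 0.977 in gut. A trend over the logarithm of concentration, fitted with limma, also called none (0% of all genes); at an unadjusted p under 0.05 it took 2 members of gill, 0 of liver and 2 of gut, against 5.57%, 6.14% and 6.66% of all genes. No member was in the authors' deposited tables of benchmark doses for fluoxetine, which list 2.79%, 2.41% and 2.19% of all genes.

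At 1000 ppb the median centred log2 fold change of the members was -0.14 in gill, 0.03 in liver and 0.08 in gut. The value furthest from 0 in any library was that of sdhaf1 in gill. Its level there was 8.31 as the mean of both controls, which lay 0.42 apart, and 8.44, 8.39, 7.90, 8.14, 7.91, 7.41, 8.21, 8.10 and 8.32 from 1.6 to 1000 ppb. The library at 100 ppb, with a centred value of -0.93 and 42.4 estimated reads, was low, and that at 1000 ppb was back at the control. In gill ndufaf3 had the smallest unadjusted trend p of the members; its level was 8.03 in the controls and between 7.47 and 8.07 in the 9 libraries, with a slope of -0.16 ± 0.05 per log10 unit of concentration (adjusted p 0.859). In gut the smallest was that of sdhc, with 10.95 in the controls and 11.25 at 1000 ppb, and a slope of 0.09 ± 0.03 (adjusted p 0.732). Over all 9 concentrations the median size of the centred values, regardless of sign, was 0.15, 0.09 and 0.08 for the members and 0.22, 0.21 and 0.18 for all genes. Members and all genes were not matched for expression level here, so these sizes do not show that the members were steadier. The authors' F-test for fluoxetine had 2.43, 2.30 and 2.27 degrees of freedom in gill, liver and gut, with the residual taken from both controls alone. With 1 library per concentration a change of the size of the scatter between libraries was not detectable, and larger changes may have been missed as well.

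**Figure D5:**
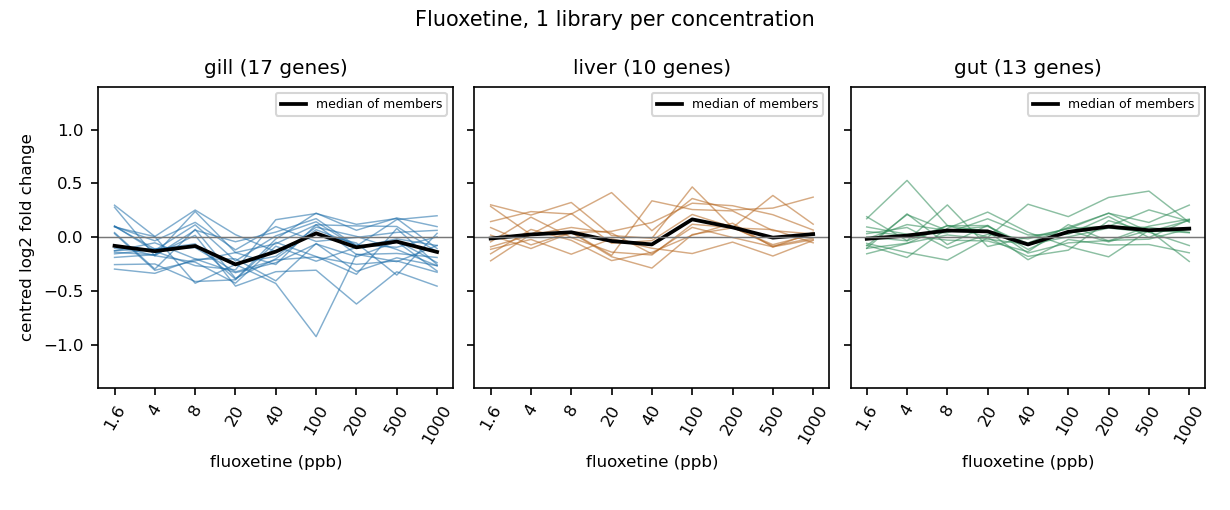
Centred log2 fold change of each tabulated member (thin lines) over 9 fluoxetine concentrations, 1 library each, with the median of the members in black. The lines stay between -0.93 and 0.53, and the lowest point is sdhaf1 in gill at 100 ppb.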

How the data were processed

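RNA was measured in 69 libraries of 3 trout cell lines. Per the submitters' processing notes, reads were handled with fastp and quantified with Salmon; versions, genome build and the rule for entering a table are not given in the sources used here. Per the file headers, the authors deposited, for each line and chemical, log2 fold changes of each concentration against the control and the mean log2 expression. Beside these they deposited an F score per gene, p-values of the F-test with adjusted p-values, benchmark doses with bounds, and lack-of-fit p-values. No counts per library were used, so no count test was run.

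Group means, the moderated variance and its degrees of freedom (7.11 in gill, 7.28 in liver and 7.11 in gut for methylmercury) were recovered from these columns; recovered control means differed from the deposited ones by less than 1e-12. With them, limma-type moderated F-tests and single-concentration tests were recomputed on centred values, two-sided, with Benjamini-Hochberg adjustment over all genes of a table and a threshold of 0.05. Differences between lines used the summed variances. SE values come from the moderated variance. Estimated reads assume a count offset of 0.5 and cover counting error only. The fluoxetine trend was fitted with limma 3.58.1 in R 4.3.3. Which control was higher could not be recovered, only their distance. Both controls were therefore placed evenly around their mean at that distance, with the same control higher for every gene. Each library was then centred on its median gene, so the spread between controls in this fit is not the measured one. Other steps used Python 3.11.15, numpy 2.4.6, scipy 1.17.1 and pandas 2.3.3. The recovery of means and variances, the single-concentration test and the fluoxetine trend were tried on simulated data first. The calls of the centred F-test were not scored there, and the test of differences between lines was not run on simulated data.

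Gene symbols were matched by gene number in the RefSeq gene table, where all 22579, 23203 and 21859 genes of the methylmercury tables had an entry. The atp5fa1 symbol was placed by hand among the ATP synthase subunits. The members, the lists and the markers were chosen with earlier results of these data known. Genes were named by a rule: the lowest and highest called member per line and complex, assembly factors called in at least 2 lines, members called in all lines or between lines, and the lowest benchmark doses. The remaining members are given so that each is accounted for, except that 1 member, which is included in the fits and counts, is not reported individually here. Alternatives were no centring, centring on the genes with a mean level above the table's median, leaving out the 25% of genes with the lowest mean level, an adjusted p under 0.01, and other forms of the fluoxetine trend.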

Additional observations from a re-analysis of the deposited data

Results flagged for a closer look

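Responses of 4 complex I subunits to methylmercury at 250 differed between lines by the test of the difference itself, with adjusted p-values over all genes under 0.05. The centred log2 fold change in gill was above that in gut by 0.82 for ndufb1, by 0.93 for ndufa2 and by 0.61 for ndufc1. The liver value was above that of gut by 0.81 for ndufb7, by 0.71 for ndufb1 and by 0.65 for ndufc1. Between gill and gut 3 of 30 members passed, against 11.2% of all genes, and between liver and gut 3 of 18, against 12.4%. These counts are near the shares of all genes and do not set the members apart. Both sets share the gut libraries. Within the gut line the centred values of these genes were -0.47 (ndufb1), -1.18 (ndufa2), -0.69 (ndufc1) and -0.72 (ndufb7), and in the other lines they lay between -0.49 and 0.35. With centring on the more highly expressed genes the differences that passed were those of ndufb1 between gill and gut and of ndufb7 between liver and gut.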

How the results depend on the processing

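No paired analysis was possible because only the means of the library pairs could be recovered; leaving out single replicates, and choosing members by product name, were not run for want of single libraries and product names. Leaving out the 25% of genes with the lowest mean level changed 1 count by over 1.5 times, the differences between gill and gut, which became 5. Without centring, F-test calls were 32, 16 and 33 in gill, liver and gut. Lower calls were then 24, 10 and 30 at 125 and 32, 17 and 33 at 250, higher calls at 250 were 0 in gill and 0 in gut, the medians at 250 were -0.94, -0.79 and -1.37, and differences numbered 9 for gill minus gut and 9 for liver minus gut. Members higher after centring turned lower: in gill ndufa1 -0.47, ndufb1 -0.54, ndufaf8 -0.40, atp5me -0.50, ndufb3 -0.46 and ndufb5 -0.59, and in gut atp5if1a -0.48 and atp5if1b -0.36, the last with an adjusted p of 0.13. These shifts follow from the centring itself. Centring on the more highly expressed genes gave 9, 1 and 8 centred F-test calls, 2 lower and 11 higher calls at 250 in gill, 4 higher in gut, medians of 0.15, 0.087 and -0.10, and 1 difference each for gill minus gut and liver minus gut. At an adjusted p under 0.01 the centred F-test called 1 member in gill and 0 in liver, and the authors' F-test 9 in liver. The calls of sdhaf3 at 250 held under each of these centrings in all 3 lines. Fluoxetine calls were 0 under every form tried. The lowest estimated depth of a member with methylmercury was 29.8 reads per library, for sdhaf1 in liver at 125.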
